A study of Homo sapiens with 9 samples.

Results

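The cytosolic chaperonin TRiC, also called CCT, is assembled from the products of 8 genes, TCP1, CCT2, CCT3, CCT4, CCT5, CCT6A, CCT7 and CCT8. Their promoters were followed in a map of YY1 binding made by chromatin immunoprecipitation and sequencing. Peaks (stretches of genome enriched in YY1-bound DNA) were taken when the table placed them within 2000 bp of a transcription start site (TSS) and under 1 of these 8 gene symbols. This gave 5 of 23002 peaks, 1 each for TCP1, CCT2, CCT4, CCT7 and CCT8, and 0 further peaks carried these symbols at a greater distance. CCT3, CCT5 and CCT6A had no peak under their own symbol. The family was chosen by measured values of this comparison, the YY1 signal of the CCT2 promoter in the 2 groups, so its differences between groups are given here as a description.

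The cells were SK-N-MC, a human tumour line that the labels call neuroblastoma and that is also known to carry an Ewing family gene fusion. They were transfected with plasmids for a huntingtin (Htt) fragment of residues 1 to 550, fused to EGFP in the study's constructs, with 23 glutamines (HttQ23, the unexpanded control) or 89 glutamines (HttQ89, the expanded form that models Huntington's disease). Both groups shared this single line, labelled wild type in genotype, and the transfection, and the Htt fragment was overexpressed on top of the endogenous gene. Each group held 3 libraries labelled as biological replicates. The comparison asked whether expanded Htt altered the binding of YY1 to its targets. YY1 signal reports neither RNA nor protein, so the labelled cell type could not be checked against marker genes here.

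TRiC is a pair of stacked rings, each ring holding the 8 different subunits around a central cavity in which a client protein folds with the use of ATP. Actin and tubulin are its best known clients, the co-chaperone prefoldin hands them over, and TRiC is also known to bind polyglutamine-expanded huntingtin fragments and to limit their aggregation. YY1 is a zinc finger transcription factor that binds a sequence with the core ATGGCG, often close to the TSS and in some genes across the start codon itself.

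The peaks lay at the first exon of these genes, reaching upstream of the TSS at TCP1, CCT4, CCT7 and CCT8 and into the first intron to different extents. They were all 401 bp wide, so their values can be compared with each other directly. Positions are on GRCh38, and distances run along the gene from the TSS of its canonical GENCODE v44 transcript. The TCP1 peak (alpha subunit, minus strand) covered chr6:159789389-159789789, with its centre 13 bp after the TSS, 187 of its bases upstream of the gene and 16 in intron 1. The CCT2 peak (beta subunit, plus strand) covered chr12:69585509-69585909, with its centre 250 bp after the TSS. It began 50 bp beyond the TSS, and 385 of its bases were in intron 1. The CCT4 peak (delta subunit, minus strand) covered chr2:61888313-61888713, with its centre at 143 bp. The CCT7 peak (eta subunit, plus strand) covered chr2:73234292-73234692, with its centre at 184 bp and 308 of its bases in intron 1. The CCT8 peak (theta subunit, minus strand) covered chr21:29073298-29073698, with its centre at 150 bp and 233 of its bases in intron 1. The start codon was inside the peak in 5 of 5 genes.

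The sequence around each of these start codons is shown because the YY1 core begins with ATGG and can coincide with the first codon. Each line gives 30 bases of the coding strand, and capitals mark the start codon and the next 3 genomic bases.
TCP1, chr6:159789451-159789480: gctgccgtcaagATGGAGgggcctttgtcc
CCT2, chr12:69585510-69585539: ctcctcggaaccATGGTGagcctgactccc
CCT4, chr2:61888490-61888519: gcggagtttgccATGCCCgagaatgtggca
CCT7, chr2:73234367-73234396: taagcttccaaaATGATGgtgagtggcgtc
CCT8, chr21:29073573-29073602: tgcaggctggccATGGCGcttcacgttccc
In CCT8 the start codon and the 3 bases after it spelled the full core. The stretches ATGGAG of TCP1 and ATGGTG of CCT2 differed from the core at 1 base, and those of CCT4 and CCT7 at more.

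The core ATGGCG, read on both strands, was found in 2 of the 5 peaks, against 27.0% of all 15384 promoter peaks. The copy in CCT8 was the one at the start codon, at −92 bp from the peak centre. The copy in CCT7 was in intron 1, on the opposite strand to the gene, at −83 bp from the centre. It is shown with capitals on the core as read on the coding strand.
CCT7, chr2:73234397-73234426: tcgcgcatccgtCGCCATcagctgccatct
TCP1, CCT2 and CCT4 held no copy, and the absence of these letters from a window says nothing about binding. The shorter letters ATGG, which are contained in the core, occurred 5 times in CCT2, 3 times in CCT4 and CCT7 and 2 times in TCP1 and CCT8. At least 1 copy was present in 79.6% of all promoter peaks, with a median of 2.0 copies. Those of CCT2 are shown for the last coding bases of exon 1 and the beginning of intron 1, where 3 of its 5 copies stood, with capitals on ATGG or its reverse complement CCAT.
CCT2, chr12:69585522-69585665: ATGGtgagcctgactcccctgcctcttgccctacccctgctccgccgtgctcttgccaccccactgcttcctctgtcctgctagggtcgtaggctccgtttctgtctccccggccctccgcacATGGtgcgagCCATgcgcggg

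Letters bound by other factors known at chaperone promoters were searched in the same peaks. GAANNTTC, the inner part of a heat shock element and a palindrome, was present in CCT2 at 341 bp, in CCT4 at 43 bp and in CCT8 at 240 bp after the TSS, against 3.89% of all promoter peaks. The ETS core CGGAAG was present once in TCP1, once in CCT2 and 2 times in CCT8, against 29.5% of promoter peaks. The NF-Y box CCAAT was present once, in TCP1 at −154 bp from the TSS, against 25.6%. Both of the latter are shown in the part of the TCP1 peak upstream of the gene, with capitals on their reverse complements ATTGG and CTTCCG.
TCP1, chr6:159789704-159789789: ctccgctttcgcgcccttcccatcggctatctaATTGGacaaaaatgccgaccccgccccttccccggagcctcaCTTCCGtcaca
The GC content of the 5 peaks was between 64.84% and 68.08%, below the promoter median of 71.32% in each and close to its lower quartile of 66.33%. A match of letters is a description of the window and not a bound site.

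**Figure D1:**
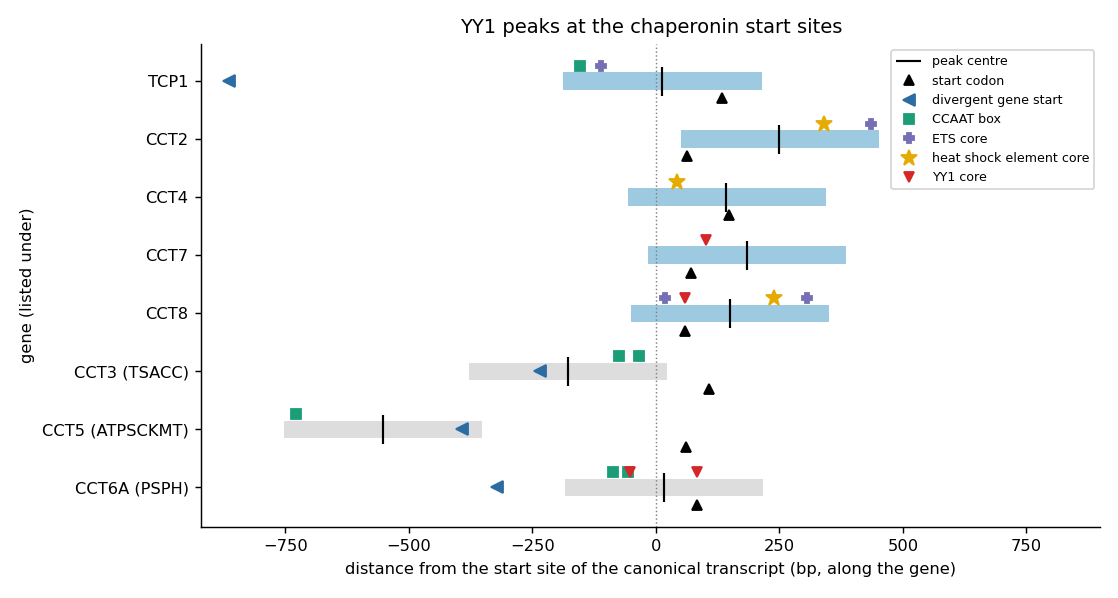
Position of the YY1 peak at each chaperonin gene, in bp along the gene from the start site of the canonical transcript. Light blue bars are peaks listed under the gene itself and grey bars are peaks listed under a divergent neighbour, black ticks are peak centres, triangles are start codons, blue arrowheads are starts of the divergent gene, and coloured symbols are letter matches. The start codon is inside the peak in 5 of 5 genes with a blue bar.

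The libraries differed in total signal, and this bears on every value that follows. The deposited normalised read counts were whole reads multiplied by 1 constant per library, and the recovered reads in peaks numbered from 1415890 to 2089917 in HttQ23 and from 927910 to 2344649 in HttQ89. HttQ89 replicates 1 and 2 were the 2 lowest libraries and HttQ89 replicate 3 was the highest. For each promoter peak above 0 in all 6 libraries (11802 peaks) the shift of a library was taken as its log2(value + 1) minus the HttQ23 mean. The median shifts of HttQ89 replicates 1, 2 and 3 were −0.92, −0.75 and 0.29. Bulk libraries cannot tell fewer bound cells from less YY1 at each bound site, and library yield and YY1 binding across all peaks cannot be told apart either.

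YY1 signal at the chaperonin promoters was ordinary in strength. Averaged over the 6 libraries, CCT7 had 129.8 normalised counts and ranked 3113 of 15384 promoter peaks. CCT4 had 88.96 (rank 5424), CCT2 82.0 (rank 5919) and TCP1 77.3 (rank 6300). CCT8 was much weaker, at 21.8 normalised counts and rank 12357. The median over the 5 peaks was 82.0, against 81.2 over the tested promoter peaks. In HttQ23 the lowest CCT7 library (123.19) was above the highest CCT2 library (116.45), whereas CCT2, CCT4 and TCP1 overlapped their neighbours in that order, and all of them were above CCT8, whose highest library was 23.64. In HttQ89 the ranges of CCT7, CCT4, TCP1 and CCT2 overlapped.

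CCT2, the beta subunit, carried the widest spread of the 5 in HttQ89. In replicates 1, 2 and 3 the normalised counts of HttQ23 were 99.7, 107.26 and 116.45, whereas those of HttQ89 were 7.21, 2.96 and 158.38. The HttQ23 libraries were close together, HttQ89 replicates 1 and 2 were far below them, and HttQ89 replicate 3 was above all of them, so the groups overlapped. These came from 94, 101 and 133 recovered reads for HttQ23, against 7, 3 and 175 for HttQ89. The exact 95% Poisson intervals of the HttQ89 counts were 2.81 to 14.4 reads, 0.619 to 8.77 reads and 150.03 to 202.94 reads, which cover counting error only.

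HttQ89 replicate 1 stood at 0.0669 times the HttQ23 mean of CCT2, HttQ89 replicate 2 at 0.0275 times and HttQ89 replicate 3 at 1.47 times. On the log2(value + 1) scale the shifts were −3.73, −4.78 and 0.55. Over all 15384 promoter peaks, those at 0 included, 2123 (13.8%) shifted as far down or further in replicate 1, and 89 (0.579%) in replicate 2. Many of these were at 0, as 16.2% of promoter peaks were in replicate 1 and 4.1% in replicate 2. Over the 11802 peaks above 0 in every library, a filter that removes the deepest falls, the numbers were 278 (2.36%) and 6 (0.0508%). In replicate 3, 74.2% of the latter peaks were at or below the CCT2 shift. HttQ23 libraries averaged 107.8 ± 8.39 and HttQ89 libraries 56.2 ± 88.5 (SD, n = 3 each). The coefficient of variation was 7.78% in HttQ23, where 3.49% of the peaks above 0 in every library had a lower one, and 158% in HttQ89, where 2.05% of all promoter peaks had a higher one. These shares describe values on which the family was chosen.

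The log2 difference at CCT2, HttQ89 minus HttQ23 on log2(value + 1), was −2.65 with a limma standard error of 0.757 and an adjusted p of 0.818 (Benjamini-Hochberg over 14698 peaks). That standard error follows the trend of variance with peak strength, and the standard error from the 6 CCT2 values alone was 1.63. Leaving out HttQ89 replicate 3 gave −4.25, whereas leaving out replicate 1 of that group gave −2.11 and leaving out its replicate 2 gave −1.59. Without HttQ89 replicate 3, the library above every HttQ23 library at CCT2, limma gave CCT2 an adjusted p of 0.00859. That fit called 514 peaks, 3.5% of those tested, all of them lower. Its spread was set by the trend, and the family was chosen on these CCT2 values, so this p is no test of CCT2. Over all 16 alternatives the adjusted p ran from 0.00859 to 1.0. On recovered reads the difference was −1.01 with edgeR and −1.06 with DESeq2.

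A shape was defined from the CCT2 values themselves, as HttQ89 replicates 1 and 2 each below 0.25 times the lowest HttQ23 library and replicate 3 above the highest HttQ23 library, at a mean of at least 20. With peaks at 0 included it was met by 48 of 12688 promoter peaks (0.378%), and among peaks above 0 in every library by 12 of 11005 (0.109%), CCT2 included. Of the 12, CCT2 had the highest value in every HttQ23 library and in HttQ89 replicate 3. The 11 others were ANO6, CSMD2, DCTN1, FBXO41, LOC105371750, OCRL, RHOD, RPS20, SERPINH1, SUSD3 and VCF2. SERPINH1, which encodes the collagen chaperone HSP47, read 71.06, 60.53 and 65.67 for HttQ23, against 2.06, 10.87 and 95.03 for HttQ89. DCTN1, a subunit of dynactin, read 42.43, 43.54 and 39.4 for HttQ23, against 6.18, 3.95 and 49.78 for HttQ89. No other chaperonin peak met the definition.

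CCT4, the delta subunit, had nearly the same HttQ23 level as CCT2 and a narrower range in HttQ89. HttQ23 libraries had 109.24, 91.33 and 101.57 normalised counts at this peak, whereas HttQ89 libraries had 68.98, 50.4 and 112.23. HttQ89 replicates 1 and 2 were below every HttQ23 library and replicate 3 above every one, the same order of the HttQ89 libraries as at CCT2. HttQ23 libraries averaged 100.7 ± 8.99 and HttQ89 libraries 77.2 ± 31.7 (SD, n = 3 each). The log2 difference was −0.45 with a limma standard error of 0.638, and it was 0.084 after centring each library on its median.

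CCT7, the eta subunit, was the strongest of the 5. HttQ23 libraries had 153.79, 123.19 and 179.49 normalised counts at this peak, whereas HttQ89 libraries had 84.42, 55.34 and 182.82. Again HttQ89 replicates 1 and 2 were the lowest libraries and replicate 3 the highest. HttQ23 libraries averaged 152.2 ± 28.2 and HttQ89 libraries 107.5 ± 66.8 (SD, n = 3 each), which gave a log2 difference of −0.66 with a limma standard error of 0.597, which was −0.12 after median centring. In HttQ89 replicate 2 its shift of −1.43 was below that of most promoters, with 10.7% of the 11802 at or below it. In replicate 1 its shift of −0.83 was near the middle, with 54.2% of promoters at or below.

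TCP1, the alpha subunit, was low in HttQ89 replicate 1 and less so in replicate 2. HttQ23 libraries had 99.7, 66.91 and 92.81 normalised counts at this peak, whereas HttQ89 libraries had 42.21, 64.24 and 97.75. The groups overlapped, since HttQ89 replicate 3 was inside the HttQ23 range, replicate 2 was just below it and replicate 1 well below it. HttQ23 libraries averaged 86.5 ± 17.3 and HttQ89 libraries 68.1 ± 28.0 (SD, n = 3 each), which gave a log2 difference of −0.40 with a limma standard error of 0.66, which was 0.14 after median centring.

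CCT8, the theta subunit, was the weakest peak and the only one of the 5 with a higher mean in HttQ89. HttQ23 libraries had 18.03, 12.74 and 23.64 normalised counts at this peak, whereas HttQ89 libraries had 32.95, 19.77 and 23.53, from 12 to 32 recovered reads each. HttQ89 replicate 1, low at most other promoters, was here the highest library. Its shift of 0.87 was above most of the distribution, with 96.1% of promoter peaks at or below it, and that of replicate 2 was 0.16, with 92.1% at or below. These shares are among peaks of all strengths, most of them stronger than CCT8. Whether the place of CCT8 goes with its weak signal was not tested. HttQ23 libraries averaged 18.1 ± 5.45 and HttQ89 libraries 25.4 ± 6.79 (SD, n = 3 each). The log2 difference was 0.47 with a limma standard error of 0.843, and its sign stayed positive under all 16 alternatives, between 0.26 and 1.10.

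**Figure D2:**
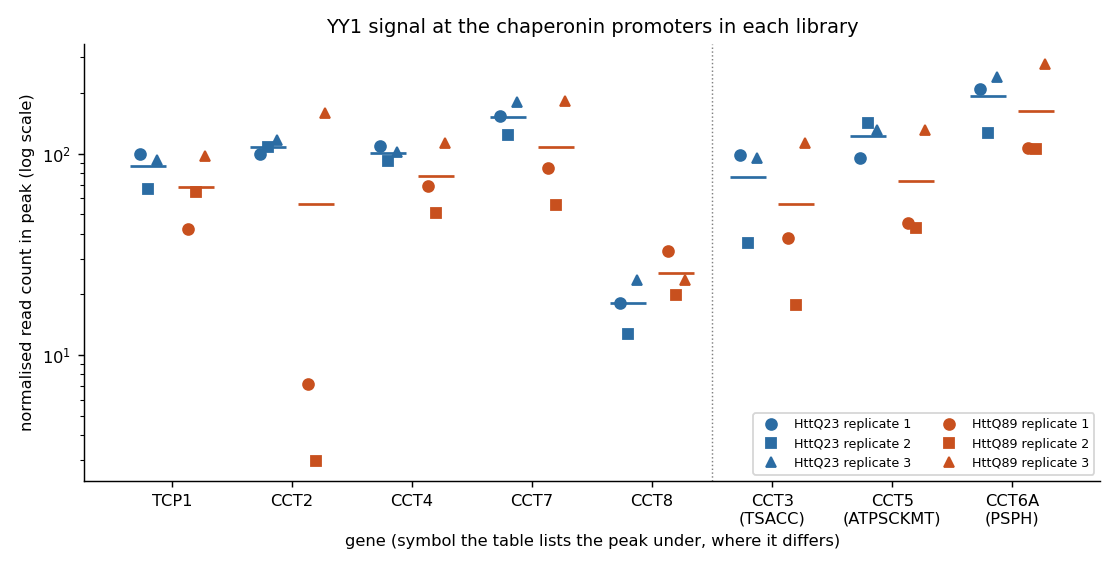
Normalised read count (log axis) in each chaperonin promoter peak, HttQ23 libraries in blue and HttQ89 libraries in orange, with circles, squares and triangles for replicates 1, 2 and 3 and horizontal lines for group means. To the right of the dotted line are the peaks listed under a neighbouring gene. At CCT2 the 3 HttQ23 libraries sit between 99.7 and 116.45, HttQ89 replicates 1 and 2 at 7.21 and 2.96 and HttQ89 replicate 3 at 158.38, while CCT8 is below 33 in every library.

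Over all tested peaks limma called 0 of 14698 (0.0%) at an adjusted p of 0.05, while 591 had a lower and 30 a higher HttQ89 signal at an unadjusted p of 0.05. edgeR called 0 (75 lower and 119 higher unadjusted) and DESeq2 called 0 (85 lower and 183 higher unadjusted). None of the 5 chaperonin peaks was called, with limma adjusted p from 0.818 to 0.845. At an unadjusted p of 0.05, CCT2 was among the 4.02% of peaks that were lower. This rests on the trended standard error of 0.757, against 1.63 from the CCT2 values alone. It also rests on values by which the family was chosen. The groups were not separated at any of the 5 peaks, against 3.76% of promoter peaks with every HttQ89 value under every HttQ23 value and 0.339% with every one over.

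The log2 difference was negative at 4 of the 5 peaks, against 85.5% of promoter peaks, but at 2 of 5 after each of median centring, quantile normalisation and TMM scaling, when TCP1 and CCT4 turned positive. After median centring 5513 of the 11802 tested promoter peaks were negative. The median over the 5 peaks was −0.45, or −0.43 without CCT2, against −0.51 over the tested promoter peaks. HttQ89 replicates 1 and 2 were both below every HttQ23 library at 4 of the 5 peaks, and at 53.1% of promoter peaks. HttQ89 replicate 3 was above every HttQ23 library at 3 of the 5, CCT2, CCT4 and CCT7, and at 34.0% of promoter peaks. Both held at these 3 peaks and at 18.7% of promoter peaks. The median shift of the 5 peaks was −0.83, −0.98 and 0.28 in HttQ89 replicates 1, 2 and 3, close to the promoter medians in the first and the last.

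The summed signal of the 5 peaks moved with the libraries. The sums were 480.5, 401.4 and 514.0 normalised counts for HttQ23, against 235.8, 192.7 and 574.7 for HttQ89. As a share of all signal in promoter peaks HttQ23 libraries held 0.0255%, 0.0299% and 0.0308%, against 0.0265%, 0.0216% and 0.0297% for HttQ89. The shares of the groups overlapped, and HttQ89 replicate 2 had the lowest.

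**Figure D3:**
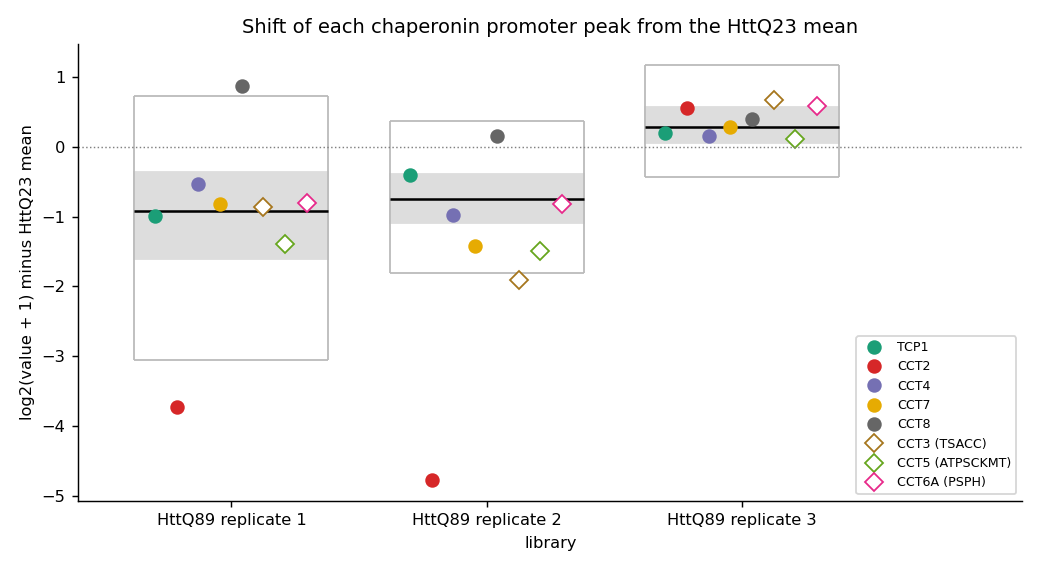
Shift of each chaperonin promoter peak in the 3 HttQ89 libraries, as log2(value + 1) minus the HttQ23 mean. Grey bands span the middle 50% of 11802 tested promoter peaks, black lines are their medians and open boxes span their 5th to 95th percentiles. CCT2 is at −3.73 and −4.78 in replicates 1 and 2, outside both boxes, and at 0.55 in replicate 3, inside the box, while CCT8 is above 0 in all 3.

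For the 3 chaperonin genes without a peak under their symbol, the nearest peak was listed under a divergent neighbour. This was looked up after the values had been seen, by searching for the peak nearest to each canonical TSS. A peak at chr1:156338270-156338670 reached 22 bp into CCT3 (gamma subunit) and was listed under TSACC, a testis co-chaperone gene that starts in the opposite direction at −234 bp from CCT3. A peak at chr5:10249527-10249927, listed under ATPSCKMT, ended 353 bp upstream of CCT5 (epsilon subunit) and held the ATPSCKMT start at −392 bp. It did not reach the canonical CCT5 transcript and is called the CCT5 peak below only for its position. A peak at chr7:56051581-56051981 spanned the CCT6A (zeta subunit) start, with its centre at 16 bp, and was listed under PSPH, the phosphoserine phosphatase gene that starts at −321 bp.

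CCT6A was the only gene of the family with more than 1 copy of the YY1 core in its peak. A copy was at the start codon, as in CCT8, and the other was in the upstream part of the peak at −53 bp from the canonical TSS, where its first 2 letters overlap a CCAAT box. Both are shown with capitals on the core.
CCT6A at the start codon, chr7:56051837-56051866: gctggagcagctATGGCGgcggtgaagacc
CCT6A upstream copy, chr7:56051700-56051729: acctgtggcccaATGGCGgcggcgcgcggg
The CCT3 and CCT5 peaks held no copy and did not contain the start codon. CCAAT was present 2 times in the CCT3 and CCT6A peaks and once in the CCT5 peak, and GAANNTTC in none of the 3.

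The CCT6A peak held 208.94, 126.38 and 240.78 normalised counts for HttQ23, against 106.04, 104.76 and 278.75 for HttQ89, the highest level at any chaperonin gene. The CCT5 peak held 95.46, 142.31 and 130.46 normalised counts for HttQ23, against 45.3, 42.5 and 130.33 for HttQ89. The CCT3 peak held 98.64, 36.11 and 95.44 normalised counts for HttQ23, against 38.09, 17.79 and 112.23 for HttQ89. In all 3, HttQ89 replicates 1 and 2 were below the HttQ23 mean and replicate 3 was near or above the top of HttQ23. At CCT3, however, HttQ89 replicate 1 was above HttQ23 replicate 2.

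The log2 differences of these peaks were −0.34 at CCT6A, −0.93 at CCT5 and −0.70 at CCT3, with limma adjusted p of 0.837, 0.818 and 0.818 (Benjamini-Hochberg), and after median centring they were 0.19, −0.39 and −0.16. Over these 3 peaks and the 5 listed under subunit symbols, the median was −0.55. Of these 8 peaks 7 were negative, against 85.5% of tested promoter peaks. Reads at a divergent promoter cannot be divided between its pair of genes. A separate promoter peak on chromosome 7 was listed under the pseudogene CCT6P3, whose sequence resembles CCT6A, and it read 60.46, 49.91 and 80.55 for HttQ23, against 41.18, 51.39 and 122.18 for HttQ89. The study's methods kept only uniquely aligned reads, so reads that match both copies equally well should count at neither.

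The chaperonin promoters did not all move as a unit across the 6 libraries. On log2(value + 1), CCT4 and CCT7 were the most alike pair (Pearson r = 0.981), and CCT2 was close to both (r = 0.963 with CCT4 and 0.957 with CCT7). TCP1 was less like them (r from 0.716 to 0.755), and CCT8, the weakest peak, did not follow the rest (r from −0.365 to −0.09). These are descriptions over 6 libraries that share the library-wide movement, and most promoter peaks follow it too. By likeness to CCT2, CCT5 ranked 142, CCT4 197, CCT7 270, CCT3 3054, CCT6A 3353, TCP1 4897 and CCT8 10936 of 11004 promoter peaks.

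The 5 promoter peaks most like CCT2 were those of PDIA6, DCTN1, SGCB, MID1IP1-AS1 and SUSD3, with r from 0.993 to 0.999. PDIA6, a protein disulfide isomerase of the endoplasmic reticulum, read 144.25, 140.19 and 150.6 for HttQ23, against 76.19, 62.26 and 160.19 for HttQ89. SUSD3, a membrane protein gene, read 86.97, 73.28 and 109.45 for HttQ23, against 4.12, 2.96 and 109.51 for HttQ89. Their order of libraries was much alike, whereas the size of the fall in replicates 1 and 2 was far larger at SUSD3 than at PDIA6. The 5 most like the mean of the 5 chaperonin peaks were ILVBL, DLX2, TUT4, VCF2 and RTL8A, with r from 0.997 to 0.999 among 11005 peaks. For this mean each peak was centred but not scaled, so CCT2, with the widest spread, weighed most. The family was chosen on the CCT2 values, and VCF2 also met the CCT2 shape. The members themselves had r of 0.993 (CCT7), 0.983 (CCT4), 0.979 (CCT2), 0.789 (TCP1) and −0.192 (CCT8) with it.

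Genes that work with the chaperonin were read in 7 lists holding 49 genes, each at its strongest promoter peak. A promoter peak was listed for 40 of them, and 34 had a value above 0 in all 6 libraries. limma called 0 of the 34 over all peaks, with a lowest adjusted p of 0.818. The log2 difference was negative at 27 and positive at 7, with a median of −0.40. Over tested promoter peaks 85.5% were negative, with a median of −0.51. After median centring the difference was negative at 14 and positive at 20 of the 34, with a median of 0.13. Of the 11802 tested promoter peaks 5513 were then negative, with a median of 0.031.

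The prefoldin complex, which delivers unfolded actin and tubulin, had 5 of its 6 subunit genes listed, all tested, with 2 negative and 3 positive differences and a median of 0.21. After median centring 1 was negative and 4 positive, with a median of 0.74, against 0.031 over the tested promoter peaks. On recovered reads the median was 0.060 with edgeR and 0.073 with DESeq2. The gene at the median of 0.21 was PFDN5, whose mean was lower in HttQ89 (27.4 normalised counts) than in HttQ23 (32.0). PFDN4 was by far the strongest peak among the lists, where HttQ23 libraries averaged 1578 ± 441 normalised counts and HttQ89 libraries 1074 ± 550 (SD, n = 3 each), and had the lowest difference of the complex, −0.63. PFDN6 had the highest, 0.99. HttQ23 libraries had 11.67, 14.87 and 110.32 normalised counts at this peak, whereas HttQ89 libraries had 57.65, 39.53 and 72.4, so that HttQ23 replicate 3 was above and the other HttQ23 libraries below every HttQ89 library.

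Phosducin-like proteins, which bind TRiC and modulate folding, had 3 of 4 genes listed and tested, with a median of 0.48 that was 1.02 after median centring. The tested promoter peaks had a median of −0.51 that was 0.031 after median centring. The phosducin-like peaks were weak, with a median strength of 23.8 normalised counts against 81.2 over the tested promoter peaks. Whether the sign goes with weak peaks was not tested. PDCL, which helps fold G protein beta subunits, read 5.3, 8.5 and 8.76 for HttQ23, against 16.47, 18.78 and 24.44 for HttQ89. It was the only gene of the 34 whose groups did not overlap in either direction. Among tested promoter peaks the groups did not overlap at 3.76% with HttQ89 lower and at 0.339% with HttQ89 higher. PDCL was higher in HttQ89, at a log2 difference of 1.304 (limma adjusted p = 0.818, Benjamini-Hochberg), and from 1.69 to 1.88 over the 5 scalings on the peaks. PDCL3 was the strongest of these peaks and had the lowest difference, −0.91, with 80.61, 73.28 and 56.04 for HttQ23, against 11.33, 42.5 and 95.93 for HttQ89.

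Other chaperonin genes had 5 of 6 listed and 3 tested, with a median of −0.41 that was 0.12 after median centring. CCT6B, the second zeta subunit gene known for expression in testis, had the highest difference, 0.53. MKKS, a chaperonin-like gene of the BBSome pathway, had the lowest, −0.62, and the strongest peak, with a mean of 106.2. HSPD1, the mitochondrial chaperonin, was between them at −0.41. Of the R2TP and prefoldin-like group, which assembles large complexes with HSP90, 5 of 7 genes were listed and 4 tested, with a median of −0.24 that was 0.30 after median centring. RUVBL1, an ATPase of this group, had the highest difference, 1.21, on a weak peak of 6.83 normalised counts on average. PDRG1 had the lowest, −0.86, and URI1 the strongest peak, 100.2.

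Genes for chaperonin clients formed the largest list, with 16 of 18 listed and 14 tested. All 14 differences were negative as deposited, with a median of −0.50 against −0.51 over promoters, but 7 of 14 were negative after median centring. ACTG1, cytoplasmic gamma actin, had the strongest peak, a mean of 414.1. TUBB2A, a beta tubulin, had the lowest difference, −0.97, with 165.46, 175.23 and 140.09 for HttQ23, against 23.68, 135.39 and 161.1 for HttQ89, a difference carried by HttQ89 replicate 1. WRAP53, a telomerase trafficking factor, had the highest, −0.0022.

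The tubulin cofactors, which take over tubulin after TRiC, had 4 of 6 genes listed and tested, 4 negative as deposited and 2 negative after median centring. TBCA had the lowest difference, −0.83, and the strongest peak, a mean of 170.2, and TBCC had the highest, −0.29. Of the heat shock factors, HSF2 read 117.73, 84.96 and 62.17 for HttQ23, against 32.95, 30.64 and 104.99 for HttQ89, a log2 difference of −0.83 that was −0.30 after median centring. The HSF1 peak was at 0 in 4 of the 6 libraries and was not tested.

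**Figure D4:**
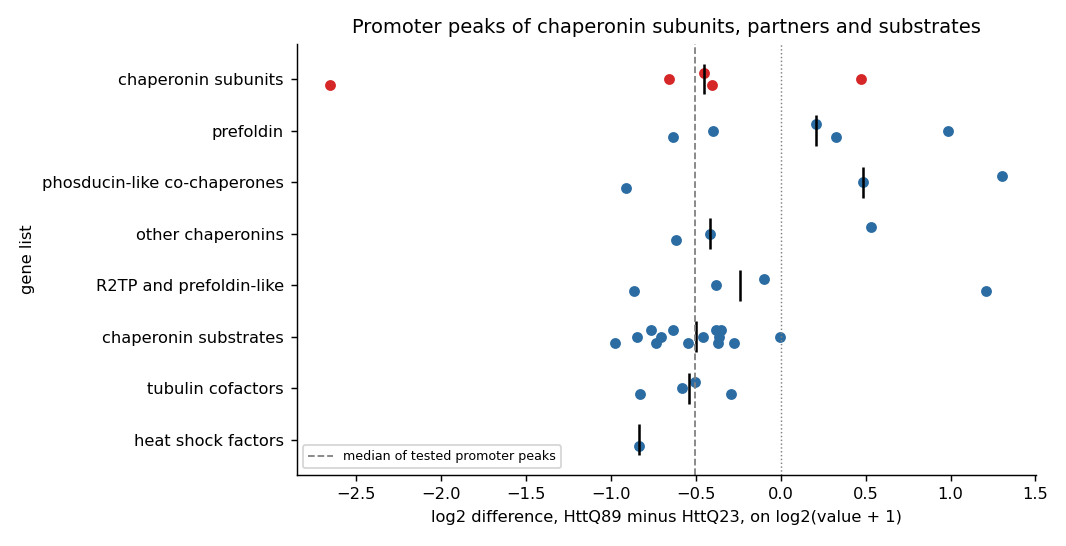
Log2 difference, HttQ89 minus HttQ23 on log2(value + 1), at the tested promoter peaks of the chaperonin subunits (red) and of 7 lists of related genes (blue), 1 point per gene. Vertical ticks are list medians, and the dashed line at −0.51 is the median of 11802 tested promoter peaks. CCT2 at −2.65 is the lowest point shown, and PDCL at 1.304 the highest. Under median centring each point moves up by the same amount, so that TCP1, CCT4 and many points near the dashed line change sign.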

How the data were processed

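YY1 chromatin immunoprecipitation used 3 HttQ23 and 3 HttQ89 libraries. The 3 inputs are not analysed here. The study's methods and the submitters' processing notes say that the authors trimmed paired 150 nt reads with cutadapt 3.7, used Bowtie2 2.4.1 for alignment to GRCh38.p14, filtered with Sambamba and bedtools 2.29.2, called peaks with MACS3 3.0.1 against input and annotated them with ChIPseeker 1.38.0. No source used here states whether calling was per library or pooled. In the deposited table each value is a signal normalised by the authors, the DiffBind read count of a peak scaled by library depth. This scaling keeps differences in yield between libraries. In every library 100% of values were whole multiples of 1 step within 0.1 reads, and reads were recovered by division. No 2 libraries held identical values. All 23002 transcripts and distances were matched in GENCODE v44.

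Peaks above 0 in all 6 libraries were tested (14698 peaks, 11802 at promoters, within 2 kb of a TSS). Fold changes are on log2(value + 1), which understates changes of weak peaks. The test was limma 3.58.1 (two-sided, lmFit and trended eBayes in R 4.3.3) with Benjamini-Hochberg adjustment at 0.05. The prior degrees of freedom were infinite, so p-values measure the trend of variance between these libraries with peak strength. The labels and the study's methods call the libraries biological replicates from independent experiments. Recovered reads were also tested with edgeR 4.0.16 and DESeq2 1.42.0. The scripts were tested on simulated counts.

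The chaperonin genes and lists were chosen with earlier results of these data known. All chaperonin rows were named, and for each list the highest and lowest difference and the strongest peak. Genes most like CCT2 and like the chaperonin mean were the 5 with the highest Pearson r at a mean of at least 20. SERPINH1, HSPD1 and the peaks listed under neighbouring genes were named after their values were seen. Alternatives were a mean filter, no filter, a pseudocount of 5, 3 scalings, no variance trend, a replicate block, leaving out each library, edgeR and DESeq2. Intervals cover counting error only. Motif letters were looked for in GRCh38 on either strand.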

Additional observations from a re-analysis of the deposited data

How the results depend on the processing

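CCT7 and CCT8 kept their direction and CCT2 its negative sign under all 16 alternatives, but CCT7 shrank from −0.66 to between −0.17 and −0.12 with the 3 scalings, edgeR and DESeq2. Scaling on the peaks moved the median difference of all tested peaks from −0.50 to 0.040 (median centring), −0.013 (quantile normalisation) and −0.014 (TMM scaling). CCT4 turned to 0.084, 0.043 and 0.037 and TCP1 to 0.14, 0.13 and 0.087 in the same order. With edgeR and DESeq2 CCT4 was 0.057 and 0.067, and TCP1 was 0.093 and 0.10. By construction such scaling sets the libraries to 1 level. The median over the chaperonin peaks ran from −0.76 without HttQ89 replicate 3 to 0.084 after median centring.

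Leaving out 1 library gave 0 to 514 called peaks, 514 without HttQ89 replicate 3, and 0 to 4 chaperonin peaks with separate groups, 4 lower ones without HttQ89 replicate 3, against 53.1% of tested promoter peaks, and 1 higher one (CCT8) without HttQ23 replicate 3, against 3.53%. Where an arm is left with 2 libraries the trend still sets the spread. With the replicate number as a block 1 peak was called, not a chaperonin peak, and CCT2 had an adjusted p of 0.581. Deviations of same-numbered libraries correlated at 0.041, 0.386 and 0.146. HttQ89 replicates 2 and 3 correlated best with their own number, whereas HttQ89 replicate 1 correlated best with HttQ23 replicate 3 (0.129). Whether the numbers pair the samples is thus undecided, and the main fit was unpaired, as was the study's test. At CCT8 the low reads limit the precision of each library.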
